A study of Homo sapiens with 3 samples.

Results

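The DNA sites described here are the ChIRP-seq peaks of the long noncoding RNA KCNQ1OT1 that lie near the ends of the human autosomes. Members are the deposited peaks on chromosomes 1 to 22 whose midpoint is at most 5 Mb from a chromosome end, with lengths from GRCh38. Only the long arm end was used for the acrocentric chromosomes 13, 14, 15, 21 and 22, which leaves 39 ends, 17 of short arms and 22 of long arms. Peaks overlapping KCNQ1OT1 itself (chr11:2608328-2699994), 17 in number and 2.61 Mb from the end of 11p, were left out. In all, 236 peaks met the rule, of 4437 autosomal peaks outside KCNQ1OT1 and 4889 peaks in the whole list. The rule used position alone and none of the peaks' fold or width.

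In ChIRP, biotinylated oligonucleotides complementary to an RNA recover that RNA from crosslinked chromatin, and the DNA recovered with it is sequenced. The cells were HEK293T, an established human embryonic kidney line that carries the SV40 large T antigen. A library recovered with the odd set of probes, a library recovered with the even set and an input without probes were made, 1 of each, after 30 min in 3% formaldehyde and sonication mostly to less than 500 bp. The deposited list, called merged by its depositors, gives 1 value per peak, so there is no replicate and no spread between libraries to set a difference against. All of its peak names carry the label of the even pulldown, and whether the values come from both pulldowns is not known. No test was run, and the 95% intervals given for counts, shares and medians cover counting error alone. The read depth is unknown, and fold is the authors' enrichment of a peak over the background of their peak caller.

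KCNQ1OT1 is transcribed from an imprinted domain near the end of 11p and silences neighbouring genes on the paternal chromosome. Telomeres are arrays of the hexamer TTAGGG, which TERT, the catalytic subunit of telomerase, extends. Next to them lie subtelomeres, patchworks of segments duplicated between chromosomes that hold gene families such as the olfactory receptor genes OR4F and the double homeobox gene DUX4. Further inward, many chromosome ends are rich in genes and in G and C bases, and deletions there cause recurrent syndromes.

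The 3 gene start sites closest to the midpoint of a member are those of GALNT9-AS1, AGPAT2 and RGS12. Their promoters are shown because, of the 231 members on chromosomes with start sites in the promoter table, only the member at GALNT9-AS1 and that at AGPAT2 had a midpoint within 1 kb of a start. In the arm interior, defined below, 58 of 2654 peaks had one. Each run below, from RefSeq on GRCh38.p14, covers 250 bases before to 50 after the start, 5′ to 3′ on the strand of the gene, and capitals mark bases inside the peak.
GALNT9-AS1, chr12:132275141-132275440, plus strand: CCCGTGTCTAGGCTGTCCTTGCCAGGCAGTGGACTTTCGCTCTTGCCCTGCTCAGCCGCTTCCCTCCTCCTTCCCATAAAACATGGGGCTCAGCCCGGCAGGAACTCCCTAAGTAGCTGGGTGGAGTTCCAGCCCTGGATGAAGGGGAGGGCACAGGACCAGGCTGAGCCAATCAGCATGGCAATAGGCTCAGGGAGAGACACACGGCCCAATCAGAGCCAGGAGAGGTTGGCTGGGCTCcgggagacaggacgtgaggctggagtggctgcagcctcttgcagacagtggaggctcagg
AGPAT2, chr9:136687408-136687707, minus strand: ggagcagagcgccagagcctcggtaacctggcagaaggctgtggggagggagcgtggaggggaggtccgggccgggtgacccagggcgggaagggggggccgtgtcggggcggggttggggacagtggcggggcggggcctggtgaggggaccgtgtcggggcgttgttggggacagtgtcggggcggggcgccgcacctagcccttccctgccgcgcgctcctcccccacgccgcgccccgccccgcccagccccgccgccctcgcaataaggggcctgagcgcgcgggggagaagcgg
RGS12, chr4:3292771-3293070, plus strand: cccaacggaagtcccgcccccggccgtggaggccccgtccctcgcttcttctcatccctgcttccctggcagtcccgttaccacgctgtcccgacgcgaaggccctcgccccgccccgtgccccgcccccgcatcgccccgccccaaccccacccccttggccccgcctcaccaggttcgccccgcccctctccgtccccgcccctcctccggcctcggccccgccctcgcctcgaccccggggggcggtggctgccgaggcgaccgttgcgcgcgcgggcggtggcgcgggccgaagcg

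The member at GALNT9-AS1 (chr12:132274937-132275380) covered 240 of the 300 bases and ended before the start site, with a midpoint 0.233 kb upstream and a fold of 9.28. The member at AGPAT2, which encodes an acyltransferase of phospholipid synthesis, had a fold of 59.9, lay 0.998 kb downstream of the start and covered none of its promoter. The member at RGS12, which encodes a regulator of G protein signalling, had a fold of 34.6 and lay 1.09 kb upstream of this start. It was also clear of the promoter but inside the gene, whose bounds (chr4:3285891-3439913) begin further upstream. The telomeric hexamer, searched as TTAGGG and its complement CCCTAA, occurred in the GALNT9-AS1 promoter 1 time, at base 107, and in neither of the others. Of all 33725 autosomal promoters of this length 9.11% hold it, and of the 4175 within 5 Mb of an end 7.52% do.

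Peaks were about as dense near the ends as in the interior of the arms. The 39 windows cover 195 Mb and held 1.21 peaks per Mb (exact Poisson 95% interval 1.06 to 1.37). The rest of the autosomes held 1.57 per Mb (1.52 to 1.62), a ratio of 0.772 (0.674 to 0.880). That reference includes gene-free intervals of at least 2 Mb, which held 8.48 per Mb. With these intervals left out, the remaining 2511 Mb, called the arm interior here, held 2771 peaks or 1.10 per Mb, and the ratio turned to 1.10 (0.956 to 1.25). Without the end of 19p it was 0.992 (0.858 to 1.14). The low density relative to the rest of the autosomes therefore held only against a reference with the gene-free intervals, and neither ratio to the arm interior had an interval clear of 1.

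The members differed from the arm interior in which peaks they were. Peaks with a fold of 20 or more, 55 in number, were sparser than in the arm interior, with 0.282 against 0.409 per Mb, a ratio of 0.690 (0.516 to 0.906). Peaks under that fold were denser, with 0.928 against 0.695 per Mb, a ratio of 1.34 (1.14 to 1.56). Without chromosome 19 the first ratio was 0.713 (0.532 to 0.938) and the second 1.14 (0.950 to 1.35), so the excess of low-fold peaks was no longer clear of 1. All 4 intervals take peaks as independent. They leave out the spread between ends, where the variance of member counts was 4.15 times the mean, and are therefore too narrow. As shares, 23.3% of the members (Wilson 95% interval 18.4 to 29.1) had a fold of 20 or more, against 37.0% (35.2 to 38.8) in the arm interior. Over all autosomal peaks 26.0% passed this fold, close to the members' share, and in the gene-free intervals 4.97% did. The median fold of the members was 7.82 (order-statistic 95% interval 6.64 to 8.61) with an interquartile range of 5.23 to 18.4. In the arm interior it was 12.2 (11.3 to 12.9), and without chromosome 19 the members had 8.42.

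Along the windows, density showed no steady course with distance from the end. The outermost 1 Mb held 52 peaks at 25 of the 39 ends, or 1.33 per Mb (0.996 to 1.75). The next 3 bins inward held 50, 61 and 30 peaks, and the bin from 4 to 5 Mb held 43, or 1.10 per Mb (0.798 to 1.49). The bin from 3 to 4 Mb was the sparsest with 0.769 per Mb, and the upper bound of its interval, 1.098, lay just below the arm interior's 1.103. Without chromosome 19 it held 0.622 per Mb (0.394 to 0.933), below the 1.09 of the arm interior without that chromosome. Over all ends, the interval of the bin from 2 to 3 Mb, 1.20 to 2.01, lay above the arm interior's 1.103. Beyond the windows, at 5 to 10 Mb and 10 to 15 Mb, 225 and 210 peaks gave 1.15 and 1.08 per Mb. The 61 peaks of the bin from 2 to 3 Mb included 41 at short arm ends, mainly at 19p, 4p and 1p. Without chromosome 19 that bin held 1.38 per Mb. Its interval, 1.03 to 1.81, then took in the 1.09 of the arm interior without that chromosome.

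**Figure D1:**
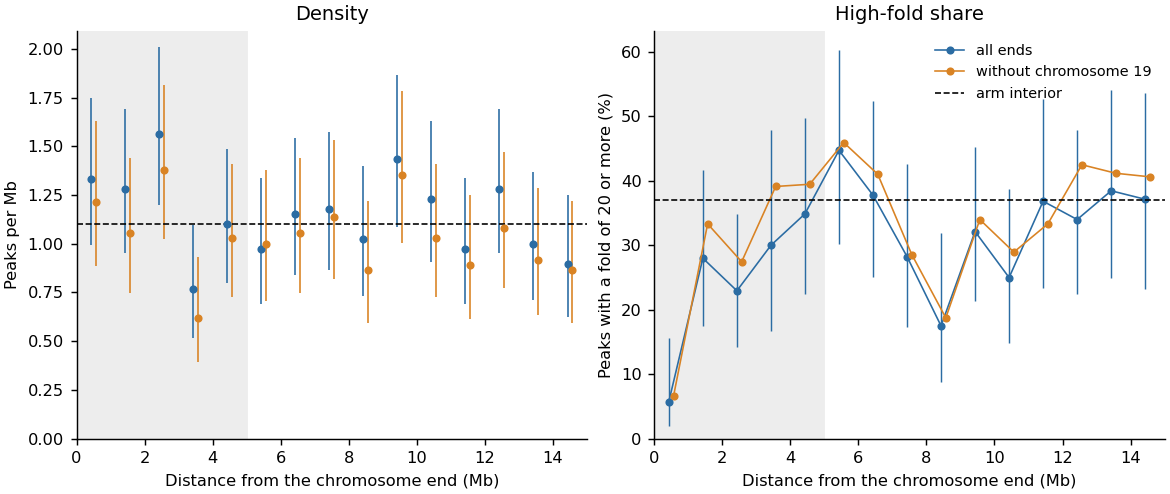
Peaks per Mb (left, with exact Poisson 95% intervals) and the percentage of peaks with a fold of 20 or more (right, Wilson 95% intervals for all ends) in bins of 1 Mb from the chromosome end. Grey marks the 5 Mb of the rule, orange leaves out chromosome 19, and dashed lines show the arm interior at 1.10 per Mb and 37.0%; the high-fold share is lowest, 5.77%, in the outermost bin.

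High-fold peaks were scarce in the outermost 1 Mb. There, 3 of 52 members had a fold of 20 or more, 5.77% (1.98 to 15.6), against 52 of 184, 28.3% (22.3 to 35.2), at 1 to 5 Mb. These 3 were in DUSP22, a dual-specificity phosphatase gene on 6p (fold 33.2), in DOCK8, a guanine nucleotide exchange factor gene of immune cells on 9p (22.5), and in LSS, the lanosterol synthase gene of sterol synthesis on 21q (26.0). The share rose to 28.0% in the bin from 1 to 2 Mb and 34.9% in that from 4 to 5 Mb. Median fold went from 5.89 (4.49 to 7.45) in the outermost bin to 10.9 (7.69 to 24) in the innermost, and the intervals of these bins did not overlap. They take peaks as independent and are therefore too narrow. The 52 outermost members lay at 25 ends, and 10 of them had another peak within 10 kb. Over the 236 members, fold and distance from the end had a Spearman correlation of 0.263, given as a description because neighbouring peaks share an end and its gene density. All 3 lay within 0.5 Mb of the end, where they made up 11.5% of the 26 members. Without chromosome 19 the outermost share was 6.67%, 3 of 45. The difference was also seen at a fold of 10, reached by 23.1% of the outermost members (13.7 to 36.1) and 40.2% of those further in (33.4 to 47.4), though these intervals overlapped.

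The chromosome ends were very unequal. Counts per end ran from 0 to 28 with a median of 5, and the variance of the counts was 4.15 times their mean. The 5 ends with the most members were 19p with 28, 5q with 14, 4p with 13, and 1p and 19q with 12 each, 33.5% of all members on 5 of the 39 ends. At these 5 the Poisson interval of the density lay above the mean over all windows, narrowly so at 1p (lower bound 1.24 against 1.21 per Mb). The intervals take peaks as independent and make no allowance for picking the fullest of 39 ends. No peak was listed within 5 Mb of the end of 10q, where the Poisson interval of the density reached up to 0.738 per Mb. This was the only 1 of the 39 intervals to lie below the mean over all windows. The nearest peak on that arm was 7.93 Mb from the end, in the helicase gene DHX32, with a fold of 56.3. The ends of 2p, 2q, 5p, 8p, 18q and 21q had 2 members each, and 24 ends had 5 or fewer.

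**Figure D2:**
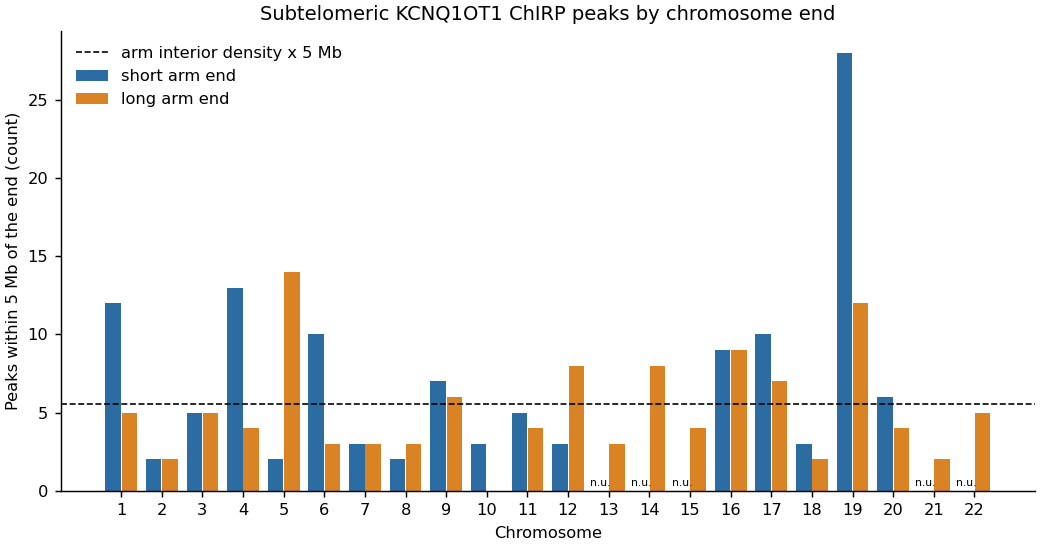
Number of members within 5 Mb of each chromosome end, for short arm (blue) and long arm (orange) ends; n.u. marks the short arms of acrocentric chromosomes, which were not used. The dashed line is the arm interior's density over 5 Mb; 19p stands far above all others with 28, and 10q has 0.

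Short arm ends held more members than long arm ends, but chromosome 19 carried much of the excess. Over the 17 chromosomes with both ends in the rule, short arm ends had 123 members, 1.45 per Mb, and long arm ends 91, 1.07 per Mb, a ratio of 1.35 (1.02 to 1.79). Without chromosome 19 the ratio was 1.20 (0.883 to 1.64). The short arm end had more members on 10 chromosomes, the long arm end on 3 (5, 8 and 12), and both had the same number on 4 (2, 3, 7 and 16). Chromosome 5 was the most lopsided toward the long arm, with 2 members against 14, and chromosomes 19, 4, 1 and 6 toward the short arm. Within 2 Mb of the ends the ratio was 0.894 (0.575 to 1.38), so the direction did not hold there, within 10 Mb it was 1.03 (0.843 to 1.26), and with neighbours within 10 kb counted as 1 peak it was 1.30 (0.980 to 1.74). Median folds of 7.80 on short arm and 7.94 on long arm ends were close. The 5 acrocentric long arm ends had 22 members, 0.880 per Mb (0.551 to 1.33).

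The end of 19p was covered from 0.333 Mb inward by peaks with a median spacing of 123 kb. Its 28 members were broad and low, with a median width of 1093 bp and a median fold of 6.12, and 1 of them had a fold above 20, that in PWWP3A (31.9), a gene for a chromatin-binding repair factor. Others lay in the adaptor complex gene AP3D1 (10.1), the casein kinase gene CSNK1G2 (4.63), the transcription factor gene NFIC (8.37) and the Wnt pathway gene APC2 (5.23). A pair 0.345 kb apart lay in CIMAP1D, with folds of 5.05 and 6.43. The window holds 202 protein-coding genes, more than any other of the 39. The opposite end, 19q, had 182 genes and peaks of like fold, with a median of 6.79 and none at 20 or more. They were narrower, with a median of 779 bp, and 3 of 12 reached 1 kb against 17 of 28 at 19p.

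Elsewhere, members gathered in parts of a window. The bounds below were set for each end around its peaks, so the counts within them are high by construction. At 1p no peak lay in the outermost 1.53 Mb, and 11 of the 12 fell between 1.5 and 2.8 Mb, with a highest fold of 9.03 in the mitochondrial ATPase gene ATAD3A. TTC34 held 5 of them (folds 3.61, 6.20, 5.80, 3.07 and 8.61), the most of any gene here. At 4p, 10 of 13 lay between 2.1 and 3.7 Mb. They included 3 in FAM193A (11, 5.93 and 22.5), 2 in POLN, a DNA polymerase gene (8.63 and 22.1), and a peak 7.24 kb from HTT, the Huntington disease gene (47.8). At 16q, 7 of 9 lay between 0.4 and 1.2 Mb, in genes such as FANCA of the Fanconi anaemia repair pathway (10.5), ANKRD11 (8.59) and TCF25 (4.45). At 5q, 9 of 14 lay in the outermost 1.5 Mb, all under a fold of 20 except that 5.29 kb from RASGEF1C (35.6).

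The end of 6p had some of the highest folds. Its median of 24.4 (6.08 to 73.7) was the highest among ends with at least 5 members, where the lowest was 4.41 at 11p. Of its 10 members 6 had a fold of 20 or more. Besides that in DUSP22, these were in GMDS, which encodes a GDP-mannose dehydratase (78.6), in its divergent transcript GMDS-DT (73.7), 119 kb from the kinase gene MYLK4 (45.2), 51.7 kb from the forkhead gene FOXC1 (28.3) and in the lncRNA gene LOC643327 (20.5). Its window has 34 protein-coding genes. GMDS held another member of low fold (3.21). Other ends were alike in fold. At 3q 4 of 5 members had a fold of 20 or more, with a median of 22.9, and at 20p 3 of 6, with 21.6.

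**Figure D3:**
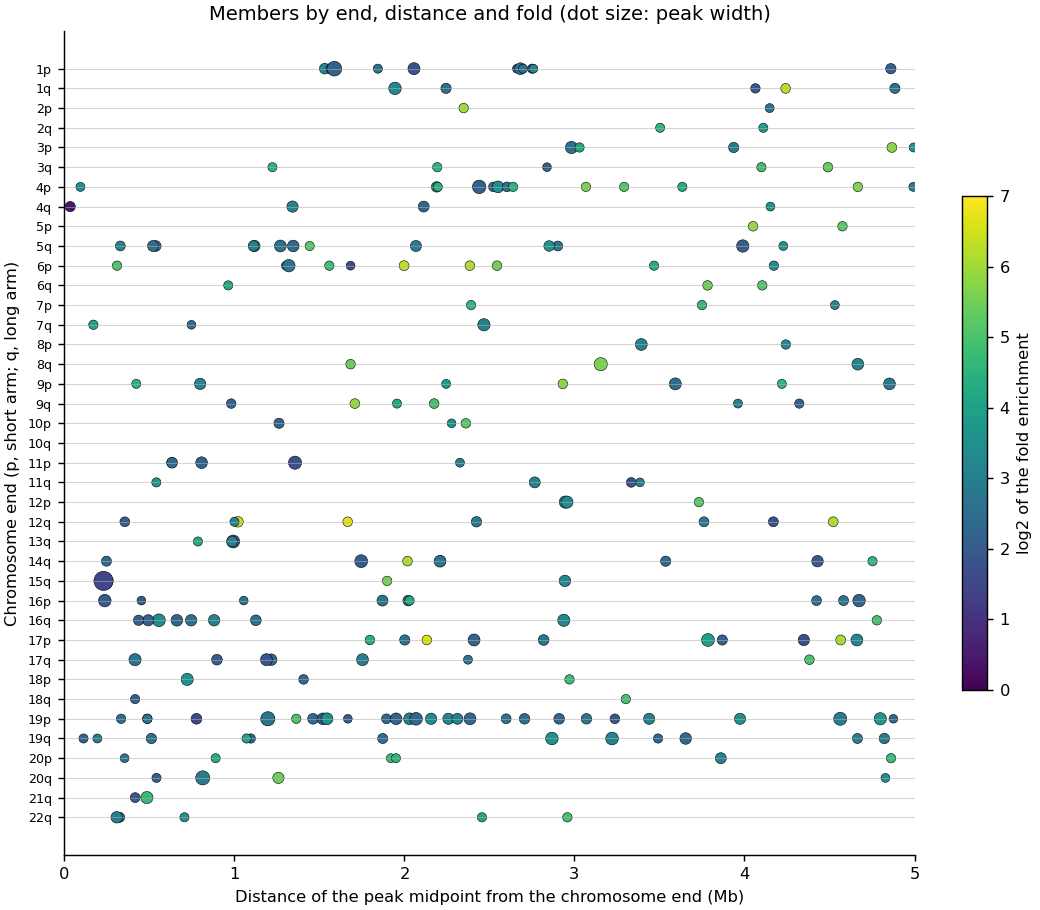
Every member by chromosome end (vertical axis) and distance of its midpoint from that end in Mb (horizontal axis), coloured by log2 of the fold enrichment and sized by peak width. The dense row is 19p, the empty row is 10q, and high-fold members (green to yellow) are rare left of 1 Mb.

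The 20 members with the highest fold lay on 14 ends, with 3 each on 12q and 6p. The highest, 101, was on 12q (chr12:131608838-131609476), 17.4 kb from the nearest gene end and 54.6 kb from the protein-coding locus LOC100996701, followed by a peak in SMG6 on 17p (95.2; chr17:2131280-2131908), which encodes an endonuclease of nonsense-mediated decay and binds telomerase. GALNT9 on 12q, a gene for an enzyme that starts O-glycans, came next with 87.4 (chr12:132254003-132254971), and also holds the peak at GALNT9-AS1. After GMDS came peaks 5.56 kb from DESI2 on 1q (75.8), 39.9 kb from the peptide transporter gene SLC15A4 on 12q (71.9), 4.85 kb from the cell cycle gene CDCA4 on 14q (70.0) and 5.09 kb from GGT6 on 17p (69.3). Within the whole list of 4889 the peak with a fold of 101 ranked 24th by fold.

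The remaining members of the top 20 by fold were mostly outside protein-coding genes. They lay 17.1 kb from MYT1L, a neuronal zinc finger gene on 2p (64.7), 449 kb from the homeobox gene IRX1 on 5p (60.3), in AGPAT2 on 9q (59.9), and 87.4 kb from the RNA-binding protein gene PUM3 on 9p (55.4). Others were 19.4 kb from ITPR1, the gene for an inositol trisphosphate receptor of calcium release, on 3p (54.0), in the lncRNA gene STX18-AS1 and LOC124900165 on 4p (50.2) and 228 kb from TSNARE1 on 8q (49.4). The last were in ADAMTS17, a metalloprotease gene on 15q (45.9), and 10.0 kb from YTHDF1, which encodes a reader of methylated adenosine in RNA, on 20q (43.8). By −log10 p the order changed, with the 8q peak first at 640 and the 20q peak second at 588, and all of the top 10 by −log10 p were among the top 20 by fold.

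High-fold members shared a narrow form, by a width limit of 750 bp that was set after the values were seen. Of the 55 with a fold of 20 or more, 51 were at most 750 bp wide, 92.7% (82.7 to 97.1), against 73 of the 181 others, 40.3% (33.5 to 47.6). Among those 51, wider peaks had higher folds, with a Spearman correlation of 0.792, and among the 73 narrow peaks under 20 the value was −0.151; as descriptions these carry no p. The median distance from the summit to the midpoint was 69 bp for the high-fold members and 189 bp for the others. The arm interior had the same forms, with 93.7% of its high-fold peaks at most 750 bp wide and a correlation of 0.581 among these, so nothing in this is particular to the ends. The 4 broad high-fold members were in GALNT9 (969 bp) and LSS (1658 bp) and near YTHDF1 (1258 bp) and TSNARE1 (2111 bp).

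**Figure D4:**
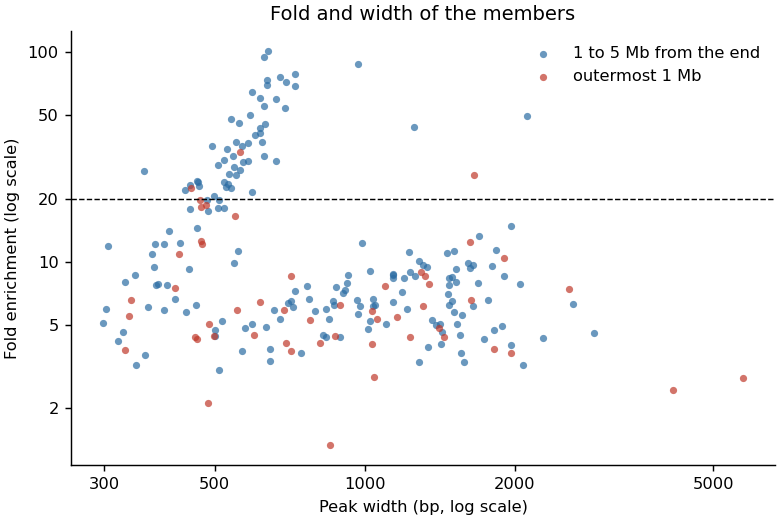
Fold enrichment against peak width in bp for the 236 members, both on log scales, with the outermost 1 Mb in red, the rest in blue and a dashed line at a fold of 20. Above the line 51 of 55 members are at most 750 bp wide; below it widths spread from 299 to 5728 bp.

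Fold fell as the number of surrounding genes rose. Members with 0 to 9 protein-coding genes within 500 kb of the midpoint had a median fold of 11.1 (8.40 to 18.1; 78 peaks), those with 10 to 24 had 7.86 (6.53 to 9.90; 82 peaks) and those with 25 or more had 6.19 (5.36 to 7.45; 76 peaks). Median widths were 598, 711 and 1029 bp. The shares with a fold of 20 or more were 34.6%, 26.8% and 7.89%. The arm interior had the same order, with medians of 14.5, 9.68 and 7.62, and in each class the members' median was below it, although the intervals overlapped in all 3 classes. Its shares with a fold of 20 or more were 41.1%, 32.6% and 21.2%. In the class of 25 or more genes the intervals of these shares did not overlap, 3.67 to 16.2 in the members and 16.7 to 26.6 in the arm interior. Without chromosome 19 they overlapped, with 5.46 to 26.1 and 18.5 to 30.5. Windows near the ends have more genes, 12.8 starting per Mb against 6.62 in the arm interior, and 32.2% of members but 9.35% of interior peaks fell in the class of 25 or more. These classes were set after the values were seen, and the part of gene number in the lower fold of the members was not tested.

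**Figure D5:**
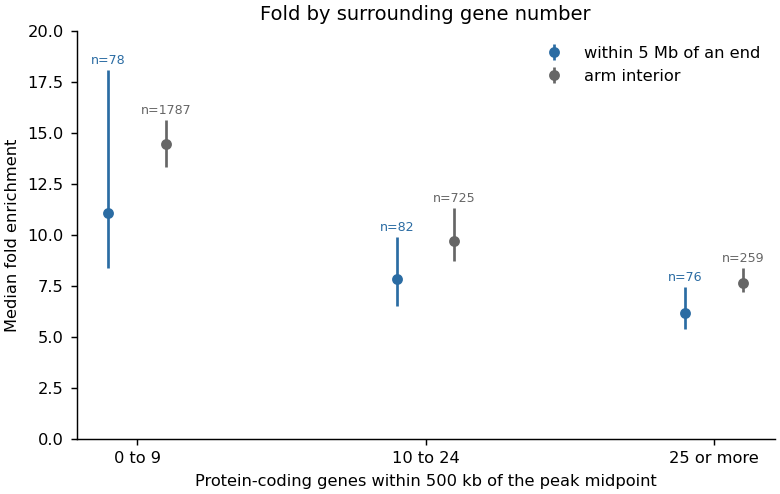
Median fold enrichment, with order-statistic 95% intervals, of members (blue) and arm interior peaks (grey) by the number of protein-coding genes within 500 kb of the peak midpoint. Both fall from left to right, from 11.1 to 6.19 in the members and from 14.5 to 7.62 in the arm interior.

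In each gene class, the share of members with a fold of 20 or more was lower in the outermost 1 Mb than at 1 to 5 Mb. With 0 to 9 genes, 1 of 12 outermost members had a fold of 20 or more against 26 of 66 at 1 to 5 Mb. With 10 to 24 genes the counts were 2 of 18 against 20 of 64, and with 25 or more they were 0 of 22 against 6 of 54. Intervals of the shares overlapped in each class, with an upper bound of 35.4% in the first. For the 26 members within 0.5 Mb of an end, the chromosome end cuts off part of the 500 kb in which genes were counted. Their classes are therefore not matched to those of members further in, and the part of gene number was not tested.

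Across the ends, windows with more genes had more peaks. Over 39 windows, members and protein-coding genes per window had a Pearson r of 0.657 and a Spearman rho of 0.558. Leaving out the 2 windows with the most extreme gene numbers, 19p and 16p, gave an r of 0.522. The relation is a description, since all windows share the same libraries, and 16p, with 197 genes, had 9 members. From each end to the next 5 Mb inward, 15 ends had more peaks in the outer 5 Mb, 22 had fewer and 2 had the same number, with a Spearman rho of 0.268. At 6p the next 5 Mb held 1 peak after 10 and at 16p 2 after 9, while 19q held 15 after 12 and 5q 9 after 14.

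Members were about as dense inside protein-coding genes as outside them. Of 236 midpoints 120 lay inside a protein-coding gene, 50.8% (44.5 to 57.2), where such genes cover 51.4% of the windows. Density was 1.20 per Mb inside and 1.22 outside protein-coding genes. Another 18 were in lncRNA genes alone and 95 in no gene. For 11 members, the nearest gene end was at most 1 kb away, 4.66% (2.62 to 8.15), against 4.33% in the arm interior. These 11 included peaks at the ends of YES1, a Src family kinase gene (12.4), LPIN2, a phosphatidate phosphatase gene (27.4), and RTN4RL1 (6.53). By start sites, 83 of 231 members, 35.9%, had a start within 10 kb of the midpoint, against 20.9% in the arm interior. Within 1 kb of a start were 2 of 231 members and 58 of 2654 interior peaks. The windows have more protein-coding genes starting per Mb, 12.8 against 6.62, and none of these shares allows for that.

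Among 2511 protein-coding genes that reach into the windows, 105 held a member, 4.18%, against 6.48% of all 19126 autosomal protein-coding genes. These shares do not allow for gene length. Per Mb inside protein-coding genes, the windows held 1.20 peaks (0.993 to 1.43) and the arm interior 1.14 (1.08 to 1.20). Longer genes held them more often, 39 of 227 above 100 kb (17.2%) and 2.89% of the others. Those with more than 1 member were TTC34, FAM193A, POLN, CIMAP1D, GALNT9 and GMDS above, and 4 long genes of neural or adhesion proteins. NTM, a neurotrimin gene on 11q, had 3 (7.99, 3.37 and 8.69). CNTN4, an axonal contactin gene on 3p, had 2 (6.16 and 18.1), as had CSMD1 on 8p (8.44 and 9.90) and TMEM132D on 12q (3.67 and 7.30).

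Among gene lists chosen for chromosome ends, the list of long genes had the most with a member. Of 30 long genes, most with neural roles and a median length of 548 kb, 10 held a member. Besides the 4 just named, ADAMTS17, GMDS and DOCK8, these were SDK1, a synaptic adhesion gene on 7p (25.9), GLIS3, a pancreatic and thyroid transcription factor gene on 9p (24), and ADARB2 on 10p (4.48). KCNQ1, another of the 30, counted as without a member, but it spans KCNQ1OT1, whose 17 peaks the rule left out. Of 30 genes tied to terminal deletion syndromes, 4 held a member: CNTN4, ADARB2, DUSP22 and MBP, the myelin basic protein gene on 18q (30.4). None of the 25 signalling genes held a member, and the smallest distances, edge to edge, were 7.98 kb for the kinase gene STK11 (6.31) and 36.4 kb for the kinase gene AKT1 (6.25). Of 18 collagen and matrix genes ADAMTS17 alone did. Over all window genes 4.18% held a member, and of those above 100 kb 17.2% did. Beside these stand 33.3% of the long genes and 13.3% of the deletion syndrome genes. The signalling genes had a median length of 27.8 kb, so their 0 of 25 is not read as a lack. None of these shares allows for gene length.

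Genes of telomere upkeep that lie in the windows, 3 of the 19 listed, held no member. Measured from edge to edge, the nearest peak to TERT on 5p was 2755 kb away, that to NHP2, a telomerase RNA-binding protein gene on 5q, 482 kb away, and that to RTEL1, a telomere helicase gene on 20q, 25.9 kb away with a fold of 7.45. Of 33 genes of the duplicated families, with a median length of 2.54 kb, DUX4 alone held a member. These counts stand beside the 4.18% of all window genes and depend on gene length.

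Closest to the chromosome ends, 5 members lay within 200 kb, 0.641 per Mb (0.208 to 1.50), and 17 lay between 300 and 500 kb, 2.18 per Mb (1.27 to 3.49). The first 500 kb as a whole held 26, or 1.33 per Mb (0.871 to 1.95). The outermost, 34.0 kb from the end of 4q (chr4:190180163-190181013), was in DUX4. Its fold of 1.34 was the second lowest of the 4889 peaks. DUX4 belongs to the D4Z4 repeat, whose near-identical copies make the placing of reads uncertain. The others were in the lncRNA gene LOC105379580 near ZNF595 at 4p, 94.2 kb from the end (10.9), 30.7 kb from the neuropeptide receptor gene VIPR2 at 7q (16.6), and in the bile acid ligase gene SLC27A5 (4.41) and ZNF324B (7.51) at 19q. At 15q, a pair 0.972 kb apart and 230 to 236 kb from the end lay beside the pseudogene DNM1P47, with widths of 4151 and 5728 bp, the broadest of all members, and folds of 2.44 and 2.81. In all 5 members had a fold under 3, 2.12% (0.908 to 4.86), against 0.974% (0.671 to 1.41) in the arm interior, with overlapping intervals, and 3.68% (3.19 to 4.25) of all 4889 peaks.

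Members seldom stood in groups. Another peak lay within 10 kb of 24, 10.2% (6.93 to 14.7), all in pairs, against 6.21% (5.37 to 7.17) in the arm interior, with overlapping intervals, and 50.7% in the gene-free intervals. Of the 12 pairs, 5 were less than 1 kb apart. Just inside the limit of 5 Mb were peaks at 4.996 Mb on 3p (12.4) and 4.993 Mb on 4p (7.75), and just outside it peaks at 5.016 Mb on 15q (35.7) and 5.025 Mb on 19q (5.77).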

How the data were processed

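The values came from 1 deposited peak list; the study has 3 libraries (odd probes, even probes, input; 1 each). Per the submitters' processing notes, Bowtie2, MACS2 and GRCh38 were used; which control, which settings and how lists were merged is not given by the sources used here. The authors deposited, per peak, a fold enrichment (a linear ratio), a −log10 p-value and a score equal to the whole part of 10 times −log10 p in all 4889 peaks. All names carry the label of the even pulldown. Peaks were placed against a RefSeq gene table of GRCh38.p14 (56756 autosomal genes) and its promoter table, which gave start sites except on chromosome 8. Assembly gaps were not excluded. Gene-free intervals, 26 in all, are stretches of at least 2 Mb without a gene. Intervals are exact Poisson, conditional binomial, Wilson or order-statistic intervals (scipy 1.17.1, Python 3.11.15). The functions were tested on simulated lists.

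Named are the 20 members highest in fold and the 10 highest in −log10 p, members within 200 kb of an end, protein-coding genes with 2 or more members, list genes with a member, and the fullest and emptiest ends; other genes were chosen after their values were seen. Members and gene lists were chosen with earlier results of these data known.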

Additional observations from a re-analysis of the deposited data

How the results depend on the processing

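Of 40 alternatives to a value with an interval, 26 stayed within it, and the list genes with a member, 13, numbered 13 and 11 under the other 2. Density against the rest of the autosomes (0.772) was 0.589 among peaks at or above the list's median −log10 p, turned to 1.10 against the arm interior, and was 0.992 without 19p and 0.976 without chromosome 19 against that reference; leaving out each end in turn gave 0.698 to 0.792. The outermost 1 Mb over the other 4 Mb had 1.13 times the density, and 0.564 among those peaks. Short arm over long arm ends gave 1.35, but 0.894 within 2 Mb, 1.03 (0.843 to 1.26) within 10 Mb, 1.30 (0.980 to 1.74) with neighbours counted as 1, and 1.20 to 1.57 on leaving out each chromosome. The ratio of median folds, 0.932 against all other autosomal peaks, was 0.737 within 2 Mb, 1.13 among those peaks, 0.642 against the arm interior and 0.670 against it without chromosome 19. Members within 2 kb of a gene end made up 11.9%. Members with a neighbour within 50 kb made up 22.9%, and among those peaks 0% had a neighbour within 10 kb. At a fold of 10 in place of 20, the outermost share was 23.1%. The settings without 19p or chromosome 19 other than in the leave-one-out ranges, those at a fold of 10 or within 0.5 Mb of the end, and that of high-fold peaks against the arm interior were chosen after seeing the data. The cause of these shifts was not tested. No paired analysis was possible because each group is 1 library and the list holds no values by library. Depth is unknown.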

Other observations

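The promoters within 5 Mb of an end had a median GC content of 64.7% (interquartile range 55.3 to 72.7) against 57.7% (46.0 to 67.3) in the rest of the autosomes. It was 66.3% in the outermost 1 Mb and 59.3% at 4 to 5 Mb. The base content of the peaks themselves was not analysed here.

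The numbers in the names of the peaks rise along each chromosome and many are absent from the list. Between neighbouring members of an end, 198 of 1108 numbers passed were listed, 17.9% (Wilson 95% interval 15.7 to 20.2), against 13.6% (13.1 to 14.1) in the arm interior. No miRNA hairpin overlapped a member; the nearest, MIR6769A on 16p and MIR101-2 on 9p, lay 1.63 and 1.67 kb away, beside members with folds of 4.76 and 7.05.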
